A study of Mus musculus with 6 samples.

Results

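The genes described here are 10 inducible transcription factors. They are the Jun family (Jun, Junb and Jund), the Fos family (Fos, Fosb, Fosl1 and Fosl2), Atf3, Maff and Egr1. A gene was taken where a probe set of the deposited table was paired with exactly 1 symbol from this list. All 10 were found, each with 1 probe set, among 10261 genes named in this way. The 6 Affymetrix MoGene-1_0-st arrays measured total RNA of untreated primary mouse cells. There were 3 arrays labelled as keratinocytes, the main cells of the epidermis, from newborn skin at postnatal day 0, and 3 labelled as MEFs, fibroblasts cultured from mouse embryos at E13.5. For MEFs the methods name C57BL/6J mice, whereas the isolation protocol names DR-4 as the strain desired and describes pooling of embryos without head and inner organs, and the strain of the keratinocytes was not given. MEFs were grown in medium with serum and keratinocytes in a keratinocyte medium, so cell type, age, medium and serum cannot be told apart.

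The labels were checked first with Cdh1, which encodes the epithelial adhesion protein E-cadherin, and Vim, which encodes the mesenchymal filament protein vimentin. Values are log2 signals after RMA, which corrects background, brings arrays to a shared distribution and summarises the probes of a set. Cdh1 was 3.33, 2.16 and 3.26 on the keratinocyte-labelled arrays and 8.62, 8.59 and 8.73 on the MEF-labelled. Vim was 11.93, 11.97 and 12.03 on the keratinocyte-labelled arrays and 3.81, 3.92 and 3.78 on the MEF-labelled. Both genes ran against the labels, as did 10 of 10 keratinocyte markers, which were higher on the MEF-labelled arrays, and 10 of 10 fibroblast markers, which were higher on keratinocyte-labelled ones. The summed linear signal of the keratinocyte markers ranged from 117 to 127 on the keratinocyte-labelled arrays and from 18190 to 18490 on MEF-labelled ones, and that of the fibroblast markers from 19676 to 20620 and from 95.1 to 112. Every direction below is therefore given for the arrays as labelled, and if the labels of the groups were exchanged, which was not tested, each would turn for the cell types. In such bulk RNA, fewer cells of a type and less RNA per cell cannot be told apart. Markers of other cell types were few: 2 of 7 macrophage markers, 1 of 6 endothelial, 3 of 7 muscle and 0 of 7 melanocyte markers were measured. Summed signals were 48.0 to 75.3 on the keratinocyte-labelled arrays and 349 to 414 on MEF-labelled ones for the macrophage genes Cd68 and Lyz2 together, 9.90 to 12.3 and 28.0 to 33.3 for the endothelial gene Kdr, and 256 to 349 and 82.1 to 93.0 for the muscle genes Des, Actc1 and Acta1. Cd68 and Lyz2 ran opposite ways: Cd68 was 4.64 ± 0.32 (SD, n = 3) on the keratinocyte-labelled arrays and 8.56 ± 0.12 on the MEF-labelled, and Lyz2 was 5.23 ± 0.47 and 1.49 ± 0.89. Of these genes, Kdr was above the background described below on no array, and Lyz2 and Des on 1 keratinocyte-labelled array each. The part of these cell types in the results was not tested.

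AP-1 is a family of dimers rather than a single protein. Jun proteins pair with each other or with Fos proteins through a leucine zipper, whereas Fos proteins need a Jun partner, and the dimers bind the TRE (TGACTCA) and, less well, the CRE (TGACGTCA). Most of these genes are immediate early genes, which growth factors, serum or stress switch on within minutes without new protein synthesis, through MAP kinases acting on serum response factor, its ETS partners and CREB or ATF proteins. In the epidermis AP-1 controls genes of differentiation and wound repair, and in fibroblasts it is known for driving proliferation and matrix metalloproteinases.

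Of the 10 factors, 4 (Egr1, Jun, Fosl2 and Fosb) were higher on the keratinocyte-labelled arrays, 3 (Fos, Fosl1 and Maff) were higher on MEF-labelled ones, and Junb, Jund and Atf3 did not pass the test. The test was limma over all probe sets with 1 symbol, and a gene was called at an adjusted p under 0.05. Of all genes, 32.9% were called higher on the keratinocyte-labelled arrays and 41.7% on MEF-labelled ones, in all 74.5%, so that 7 of 10 factors called is near the background. For 8 of 10 factors the groups did not overlap, as for 78.4% of all genes. A difference of at least 1 on the log2 scale was called for 3 factors, Egr1, Jun and Fos, as it was for 28.4% of all genes. The median absolute difference was 0.60 over the 10 factors and 0.57 over all genes. Both directions occurred within the Fos family, Fosl2 and Fosb against Fos and Fosl1, and of the Jun family Jun passed. The split depended on scaling. Over all genes the median difference was -0.12 as deposited and 0.01 when each array was centred on its median. With that centring 6 factors, Jund and Atf3 among them, were higher on the keratinocyte-labelled arrays and 2 on MEF-labelled ones, Maff no longer passing. The calls over all genes moved too, from 3371 higher on the keratinocyte-labelled arrays and 4278 on MEF-labelled ones to 3902 and 3575. For each of the 8 factors whose groups did not overlap, an exact two-sided permutation test gave p = 0.1, the smallest that 3 arrays against 3 allow.

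**Figure D1:**
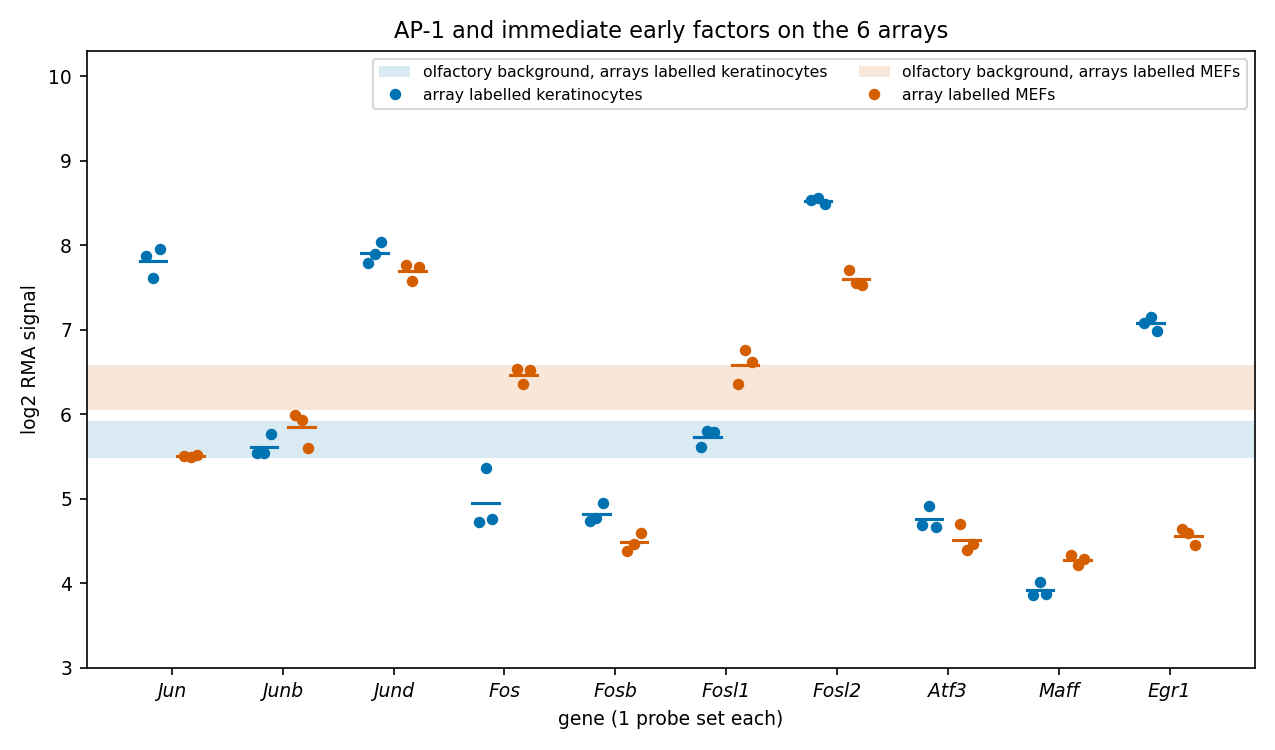
Log2 RMA signal (vertical axis) of the 10 factors (horizontal axis) on the 3 keratinocyte-labelled arrays (blue) and the 3 labelled MEFs (orange), with a point for each array, a line for each group mean and a band from the lowest to the highest olfactory receptor background among the arrays of a group. Jun, Fosl2 and Egr1 are higher on the keratinocyte-labelled arrays, Fos and Fosl1 on MEF-labelled ones, and Fosb, Atf3 and Maff lie below both bands.

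Signals were set against a background, the 95th percentile over 10 probe sets of olfactory receptors, genes of the olfactory epithelium. This background was 5.49 to 5.92 on the keratinocyte-labelled arrays and 6.05 to 6.58 on MEF-labelled ones. It was set by the brightest of these probe sets, while the median of the 10 was 4.19 to 4.56 over the 6 arrays, so a gene under it need not be silent. Where a group lay under it on all its arrays, a fold is a lower bound against it, and no fold is given where no array was above it or the bound came to less than 1. Fosb, Atf3 and Maff were above background on 0 of 6 arrays.

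Jun, the strongest transactivator of its family and the usual partner of Fos, was 7.88, 7.61 and 7.95 on the keratinocyte-labelled arrays and 5.51, 5.50 and 5.51 on the MEF-labelled. The groups lay far apart, and the 3 MEF-labelled arrays were nearly identical and not above background. The difference was 2.31 ± 0.11 (SE, n = 3 per group) on the log2 scale, at least 2.69-fold (adjusted p = 3.23e-07 from limma). It was called in each of the 20 alternatives other than z-scores, with differences of 2.24 to 2.43. With z-scores, which have another unit, Jun was called as well (adjusted p = 2.77e-07 from limma).

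Junb, which can oppose Jun and is induced together with Fos, was 5.54, 5.54 and 5.77 on the keratinocyte-labelled arrays and 6.00, 5.93 and 5.60 on the MEF-labelled. The groups overlapped, since replicate 3 labelled MEFs fell among the keratinocyte-labelled arrays. The difference was -0.23, with a 95% confidence interval from -0.53 to 0.07 (adjusted p = 0.138 from limma), and without that array it was -0.35 and passed (adjusted p = 0.0375 from limma). Junb was above background on 1 of 3 keratinocyte-labelled arrays and on 0 of 3 labelled MEFs.

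Jund, the constitutively expressed member of the family, was 7.79, 7.90 and 8.04 on the keratinocyte-labelled arrays and 7.77, 7.57 and 7.74 on the MEF-labelled, above background on all 6 arrays. The groups touched without overlapping. The difference was 0.22, with an interval from -0.02 to 0.46 (adjusted p = 0.0901 from limma). Jund passed with median centring, at 0.35 (adjusted p = 0.0168 from limma), with quantile normalization, at 0.32 (adjusted p = 0.0292 from limma), with an intensity trend and a robust fit together (adjusted p = 0.0445 from limma), with array weights (adjusted p = 0.0497 from limma), with z-scores (adjusted p = 0.0207 from limma) and without replicate 1 labelled keratinocytes, at 0.28 (adjusted p = 0.0497 from limma).

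Within the family, the log2 ratio of Jun to Junb on the same array, which centring an array cannot shift, was 2.34, 2.07 and 2.18 on the keratinocyte-labelled arrays and -0.49, -0.43 and -0.09 on the MEF-labelled. It differed by 2.53 between the group means, and the ratio of Jun to Jund by 2.09. These are differences of measured signals and not of known levels, since Jun on the MEF-labelled arrays and Junb on 5 of 6 arrays were not above background. As probe sets differ in brightness, the sign of a ratio does not say which gene was more abundant. The ratio of Junb to Jund went from -2.25, -2.36 and -2.27 to -1.78, -1.64 and -2.13 on the MEF-labelled arrays.

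Fos, the prototype of a serum-induced gene, whose mRNA is very short-lived, was 4.72, 5.36 and 4.76 on the keratinocyte-labelled arrays and 6.53, 6.35 and 6.52 on the MEF-labelled. All 3 MEF-labelled arrays were higher, opposite to Jun, and replicate 2 stood above the others of the keratinocyte-labelled arrays. The difference, keratinocytes minus MEFs as labelled, was -1.52 ± 0.17 (SE, n = 3 per group) (adjusted p = 7.05e-05 from limma). The MEF-labelled mean of 6.47 was 1.70-fold over the background of the keratinocyte-labelled arrays, 5.49 to 5.92. The background of the MEF-labelled arrays was higher, 6.05 to 6.58, so this fold is not a lower bound for Fos. The signal was dim: Fos was above background on 1 of 3 MEF-labelled arrays and on 0 of 3 labelled keratinocytes. With the wider background, added after seeing the data, it was above on 0 of 3 arrays in each group.

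Fosl1, which encodes FRA-1, a Fos protein without the transactivation domain and known for its late and sustained induction, was 5.62, 5.80 and 5.79 on the keratinocyte-labelled arrays and 6.36, 6.76 and 6.62 on the MEF-labelled. It ran the same way as Fos. The difference was -0.84 ± 0.12 (SE, n = 3 per group), or 1.80-fold as measured (adjusted p = 3.27e-04 from limma), with 1 of 3 and 2 of 3 arrays above background.

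Fosl2, which encodes FRA-2, went the other way. It was 8.53, 8.56 and 8.49 on the keratinocyte-labelled arrays and 7.71, 7.56 and 7.53 on the MEF-labelled, above background on all 6 arrays and with no overlap. The difference was 0.93 ± 0.09 (SE, n = 3 per group), or 1.90-fold (adjusted p = 2.89e-05 from limma). Fosl2 was thus the Fos gene above background throughout.

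Fosb was 4.74, 4.77 and 4.95 on the keratinocyte-labelled arrays and 4.38, 4.47 and 4.60 on the MEF-labelled. The groups did not overlap, and the difference of 0.34 ± 0.10 (SE, n = 3 per group) passed (adjusted p = 0.0168 from limma) on signals that were below background on each array. The call did not hold without replicate 3 labelled keratinocytes (0.27, adjusted p = 0.0543 from limma), without replicate 1 labelled MEFs (0.29, adjusted p = 0.0582 from limma), without replicate 2 labelled MEFs (0.33, adjusted p = 0.0520 from limma), with quantile normalization (0.23, adjusted p = 0.0567 from limma) with an intensity trend and a robust fit together (adjusted p = 0.0514 from limma) or with z-scores of each array (adjusted p = 0.105 from limma).

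Ratios within the Fos family are also of dim signals, since Fos was above background on 1 of 6 arrays and Fosb on none. The log2 ratio of Fos to Fosl2 was -3.81, -3.19 and -3.73 on the keratinocyte-labelled arrays and -1.18, -1.21 and -1.01 on the MEF-labelled, a difference of -2.45 between the group means. The ratio of Fosl1 to Fosl2 was -2.92, -2.76 and -2.70 against -1.35, -0.80 and -0.91. The ratio of Fos to Fosl1 was -0.89, -0.44 and -1.02 against 0.18, -0.40 and -0.10, with a gap of little size between the nearest arrays. All 9 ratios within the Jun and Fos families, 3 of them with Fosb, kept the groups apart (exact two-sided permutation test, p = 0.1 each and 0.1 after Benjamini-Hochberg adjustment over the 9, the smallest this design allows). Since 78.4% of single genes did so too, nothing particular to these families is read from it.

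Atf3, a stress-induced ATF protein that acts mostly as a repressor, was 4.69, 4.92 and 4.67 on the keratinocyte-labelled arrays and 4.70, 4.39 and 4.47 on the MEF-labelled. The groups overlapped through replicate 1 labelled MEFs. The difference was 0.24, with an interval from -0.03 to 0.51 (adjusted p = 0.0916 from limma). It passed without replicate 1 labelled MEFs (0.33, adjusted p = 0.0383 from limma), with median centring (0.37, adjusted p = 0.0349 from limma) and with array weights (0.28, adjusted p = 0.0454 from limma).

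Maff, a small Maf protein that binds DNA with CNC factors such as NRF2 and lacks a transactivation domain, was 3.86, 4.02 and 3.88 on the keratinocyte-labelled arrays and 4.33, 4.22 and 4.29 on the MEF-labelled. The difference of -0.36 ± 0.09 (SE, n = 3 per group) passed (adjusted p = 0.00680 from limma), at the lowest signals of the 10 probe sets. It was -0.72 with quantile normalization and -0.23 with median centring, where it no longer passed (adjusted p = 0.0644 from limma).

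Egr1, a zinc finger factor that binds GC-rich sites and is induced through serum response factor, was 7.08, 7.15 and 6.99 on the keratinocyte-labelled arrays and 4.65, 4.59 and 4.45 on the MEF-labelled, where it was not above background. The difference was 2.51 ± 0.10 (SE, n = 3 per group), at least 1.61-fold (adjusted p = 9.06e-08 from limma). It was called in each of the 19 alternatives that kept its probe set, z-scores not counted, and with z-scores as well (adjusted p = 2.18e-07 from limma). Egr1 and Fos, both classical serum-response genes, therefore differed in opposite directions on the same arrays.

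**Figure D2:**
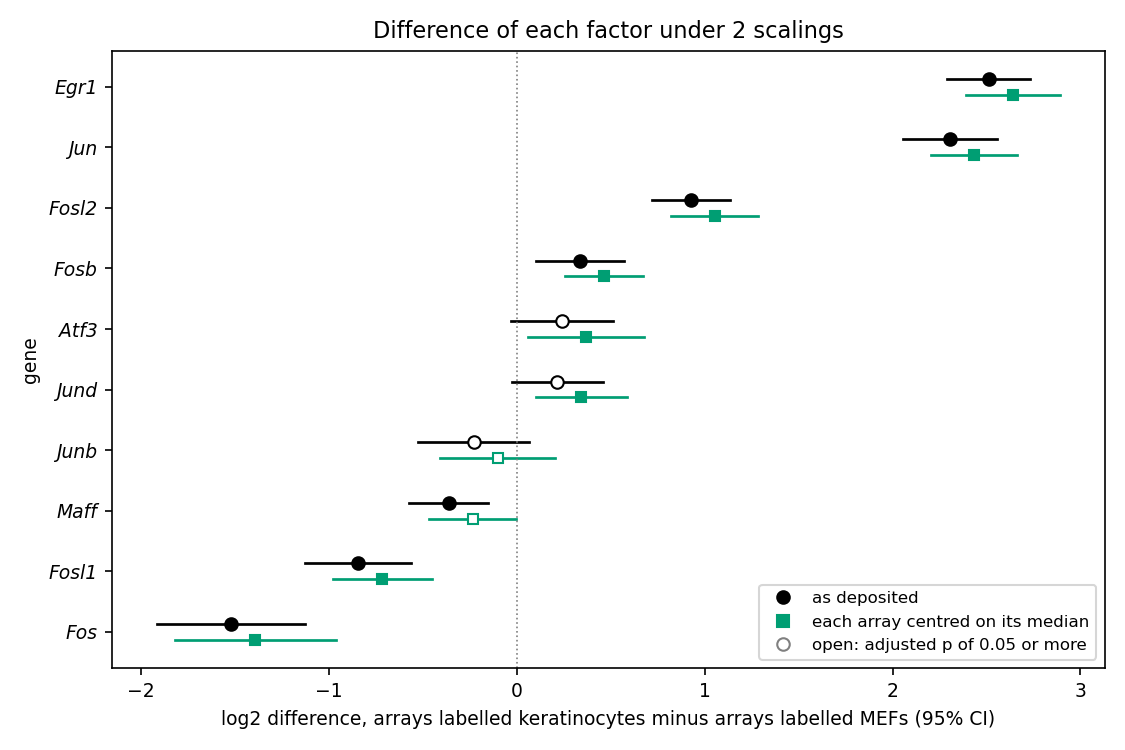
Log2 difference, keratinocyte-labelled arrays minus MEF-labelled arrays (horizontal axis), of the 10 factors (vertical axis), with points for the limma estimate and lines for its 95% confidence interval, as deposited (black circles) and with each array centred on its median (green squares), filled at an adjusted p under 0.05. Centring moves all factors up by 0.13, so that Jund and Atf3 pass and Maff does not, and it changes no direction.

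The order of the arrays within a group was not the same for all factors. On the keratinocyte-labelled arrays, replicate 2 held the highest value for 6 of 10 factors and replicate 3 for 4, while replicate 1 was lowest for 5. On MEF-labelled ones, replicate 1 was highest for 7 factors. Over probe sets, which cannot stand for independent replicates, Pearson's r was 0.976 to 0.982 between keratinocyte-labelled arrays and 0.986 to 0.990 between MEF-labelled ones, against 0.721 to 0.740 across the groups.

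The sequence upstream of the start site is shown for the called factors with a promoter in the RefSeq table (GRCm38.p6), to set the elements of these promoters side by side. Promoters of 250 bases before to 50 after a start were listed for 8 of the 10 genes, with 3 starts for Maff. Egr1 and Fosl1 are not shown. Each line gives the 100 bases before the start, 5′ to 3′ on the gene's strand, with the motif matches named here in capitals and GC boxes not marked. First stand the genes higher on the keratinocyte-labelled arrays. Capitals mark, in Jun at chr4:95052223-95052322 on the minus strand, a CCAAT box, the CRE-like Jun-type site TGACATCA and a MEF2 site. In Fosl2 at chr5:32136372-32136471 on the plus strand and Fosb at chr7:19310046-19310145 on the minus strand they mark an EGR site, GCGNGGGCG.
Jun: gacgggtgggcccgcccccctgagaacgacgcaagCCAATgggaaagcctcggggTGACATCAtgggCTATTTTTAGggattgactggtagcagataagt
Fosl2: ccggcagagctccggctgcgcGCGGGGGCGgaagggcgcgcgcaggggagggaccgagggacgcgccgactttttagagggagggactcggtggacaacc
Fosb: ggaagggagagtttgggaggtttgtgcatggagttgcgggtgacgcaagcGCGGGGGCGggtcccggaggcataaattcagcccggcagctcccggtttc

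The genes higher on the MEF-labelled arrays follow. In Fos at chr12:85473790-85473889 on the plus strand, capitals mark the CRE core TGACGT and a TATA box, TATAAA. In Maff at chr15:79347420-79347519 on the plus strand, the second of its starts, they mark an EGR site and a full CRE.
Fos: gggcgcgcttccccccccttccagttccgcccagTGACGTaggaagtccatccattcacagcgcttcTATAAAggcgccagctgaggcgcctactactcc
Maff: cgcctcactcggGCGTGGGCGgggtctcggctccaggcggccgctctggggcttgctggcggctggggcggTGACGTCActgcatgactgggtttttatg

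The windows were searched on both strands for these motifs and for the TRE (TGACTCA), the GC box (GGGCGG) and the CArG box, the site of serum response factor. A full CRE also counts as a CRE core, and an EGR site can overlap a GC box. Counted from the start, with base -1 just before it, the CRE core lay at bases -66 to -61 in Fos and -8 to -3 in Atf3, and the full CRE at bases -29 to -22 in Maff. Neither form was found in Jun, Junb, Jund, Fosb or Fosl2. Of 32851 promoters in the table, 7.51% held the core and 1.79% the full site. The Jun-type site, known as the element through which Jun acts on its own gene, lay at bases -45 to -38 in Jun and at the same bases in the third start of Maff, and 3.62% of promoters held it. The MEF2 site lay at bases -33 to -24 in Jun and -22 to -13 in Atf3, and 3.19% of promoters held one. The EGR site was in Fosl2, Fosb and Maff and in 5.55% of promoters. No TRE and no CArG box was in these windows, which 5.20% and 1.63% of promoters held, and this says nothing of sites farther away. The CCAAT, TATA and GC boxes were common, at 37.4%, 13.6% and 35.7%. Which start gave the RNA on these arrays was not measured, and a match is a description of letters, not of binding.

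**Figure D3:**
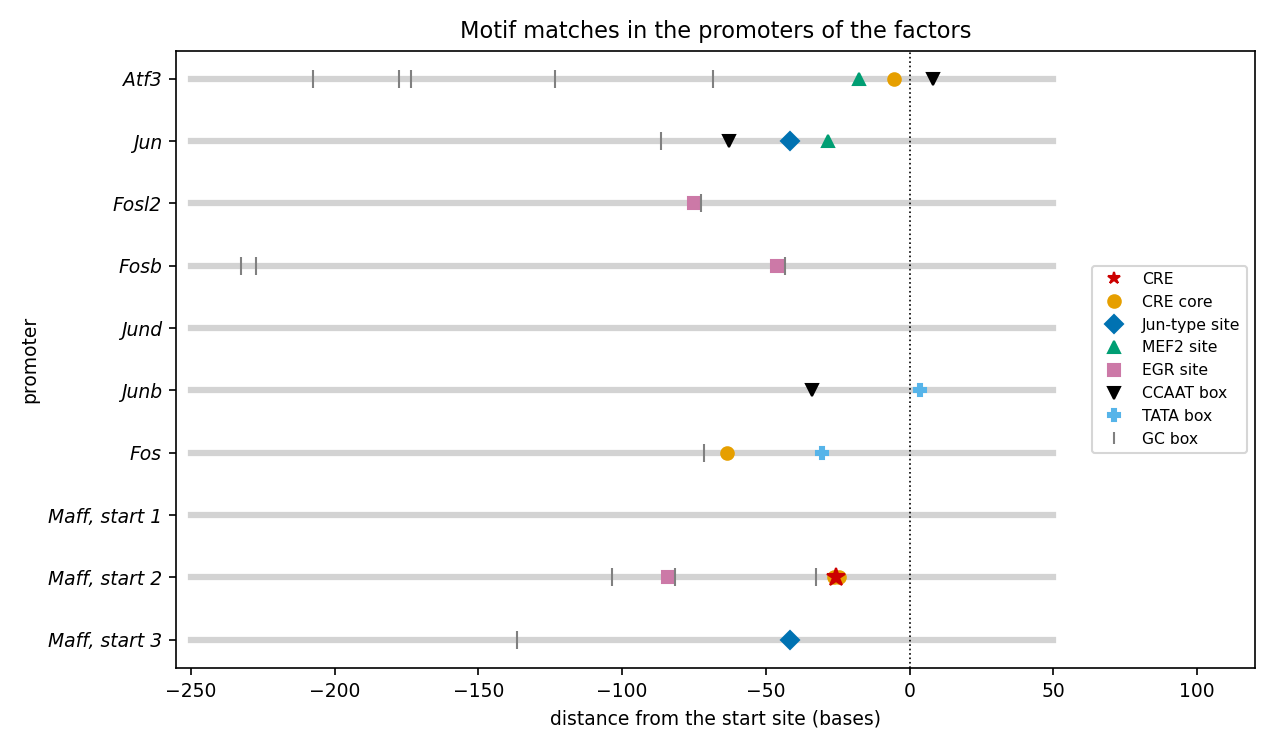
Motif matches (symbols) by distance from the start site in bases (horizontal axis) in the 10 promoters of 8 factors (vertical axis), with grey bars for the windows searched. Fos and Atf3 hold a CRE core, the second start of Maff a full CRE, Jun and the third start of Maff a Jun-type site, and Fosb, Fosl2 and Maff an EGR site.

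Other genes of the pathway were taken from lists chosen for their known roles. Among relatives of AP-1, mostly of the ATF, Maf and CNC families but with others such as Jdp2 and Ddit3, 13 of 25 were measured. Of these, 8 were higher on the keratinocyte-labelled arrays, 2 on MEF-labelled ones and 3 did not pass, beside 32.9% and 41.7% of all genes called in these directions. The share called was near the 74.5% of all genes, and the median difference was 0.54 beside -0.12 over all genes. Atf5, a stress-responsive factor, was 8.93 ± 0.02 (SD, n = 3) on the keratinocyte-labelled arrays and 6.52 ± 0.11 on MEF-labelled ones, or 5.31-fold higher (adjusted p = 9.57e-08 from limma). It was above background on 2 of 3 MEF-labelled arrays. Atf6, a sensor of the unfolded protein response, stood at 6.99 ± 0.09 and 6.09 ± 0.15 (adjusted p = 9.43e-05 from limma), above background on 1 of 3 MEF-labelled arrays. Ddit3, which encodes the stress factor CHOP, stood at 5.94 ± 0.06 and 3.84 ± 0.24 (adjusted p = 1.59e-06 from limma), with no fold because the bound came to less than 1. The other direction was that of Nfe2l2, which encodes NRF2, a partner of small Maf proteins, and of the small Maf gene Mafk. Nfe2l2 was 7.98, 8.09 and 8.21 on the keratinocyte-labelled arrays and 8.93, 8.92 and 8.79 on the MEF-labelled, 1.72-fold higher there (adjusted p = 1.35e-04 from limma). Mafk, above background on no array, was 5.33 ± 0.05 and 5.86 ± 0.10 (adjusted p = 9.53e-04 from limma). Both ran the same way as Maff.

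Of 46 other immediate early genes, 42 were measured. Of these, 23 were higher on the keratinocyte-labelled arrays, 15 on MEF-labelled ones and 4 did not pass, beside 32.9% and 41.7% of all genes called in these directions, and 6 were above background on no array. Ccn1 and Ccn2, matricellular genes controlled by serum response factor and YAP, had the largest differences in the first direction. Ccn1 was 10.37, 10.50 and 10.45 on the keratinocyte-labelled arrays and 7.86, 7.90 and 7.88 on the MEF-labelled, 5.90-fold higher (adjusted p = 4.15e-08 from limma), and Ccn2 was 5.09-fold higher (adjusted p = 8.09e-08 from limma). The opposite direction held for Plk3, a kinase gene, at 5.46 ± 0.12 against 7.95 ± 0.11 on the MEF-labelled arrays, 5.64-fold higher (adjusted p = 1.51e-07 from limma), and for Nfkbia, the inhibitor and target of NF-κB, at 5.77 ± 0.10 against 7.99 ± 0.13, 4.67-fold higher (adjusted p = 2.99e-07 from limma). On the keratinocyte-labelled arrays Plk3 was above background on 1 of 3 and Nfkbia on 2 of 3.

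The list of genes upstream of AP-1 held MAP kinases, linked kinases and activators, and the ETS and SRF cofactors. It also held the ubiquitin ligase genes Fbxw7 and Cop1. Of its 35 genes, 22 were measured. Of these, 13 were higher on the MEF-labelled arrays, 5 on keratinocyte-labelled ones and 4 did not pass, where 41.7% and 32.9% of all genes were called in these directions. With median centring these counts were 10 and 7, where 3575 and 3902 of all genes were called in these directions. Of the 22 genes, 7 did not rise above background on any array. Mapk13, the p38 delta kinase gene of epithelia, stood at 5.22 ± 0.24 on the keratinocyte-labelled arrays and 7.36 ± 0.08 on MEF-labelled ones, 4.41-fold higher (adjusted p = 1.58e-06 from limma), with 1 of 3 keratinocyte-labelled arrays above background. Map2k6, which activates p38 kinases, stood at 3.92 ± 0.17 and 5.43 ± 0.12 (adjusted p = 7.16e-06 from limma), Rps6ka5, the kinase MSK1, at 3.77 ± 0.11 and 5.10 ± 0.24 (adjusted p = 3.88e-05 from limma), and Map3k5, the stress kinase ASK1, at 3.91 ± 0.03 and 4.81 ± 0.32 (adjusted p = 8.51e-04 from limma), each above background on no array.

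Among genes known as AP-1 targets, 14 of 22 were measured and 14 passed, beside 74.5% of all genes. Of these, 8 were higher on the MEF-labelled arrays and 6 on keratinocyte-labelled ones, where 41.7% and 32.9% of all genes were called in these directions. Their median absolute difference was 2.17, beside 0.57 over all genes. This median lay between the differences in size of Ccl2, at 2.16, and Tgm1, at -2.18, the 2 targets above background on no array. The list mixes targets typical of epidermis and of mesenchyme. Higher on the MEF-labelled arrays were Krt6a, the keratin of wounded epidermis, at least 18.9-fold (adjusted p = 2.58e-09 from limma), the hemidesmosomal integrin Itgb4, at least 18.0-fold (adjusted p = 7.35e-09 from limma), and Sprr1b, a cornified envelope gene, at least 2.68-fold (adjusted p = 3.04e-06 from limma). Mmp13, the collagenase that AP-1 induces in fibroblasts, was 8.07, 8.17 and 8.14 on the keratinocyte-labelled arrays and 3.11, 3.11 and 3.06 on the MEF-labelled, a difference of at least 3.34-fold (adjusted p = 2.58e-09 from limma). Itgb4 is also one of the 10 keratinocyte markers of the label check.

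Heat shock genes were set beside these factors because isolation of cells can induce both. Of 13 genes, 10 were measured, with 4 higher on the MEF-labelled arrays, 1 higher on keratinocyte-labelled ones and 5 not past the test. Of all genes, 41.7% and 32.9% were called in these directions, in all 74.5%. When each array was turned into z-scores, 4 and 5 heat shock genes were called in these directions. Hspb1, a small heat shock protein gene that keratinocytes express, was 6.80, 7.27 and 7.51 on the keratinocyte-labelled arrays and 10.20, 10.13 and 10.26 on the MEF-labelled, 8.01-fold higher (adjusted p = 9.64e-07 from limma). The co-chaperone Dnajb1 was 2.04-fold higher there (adjusted p = 2.08e-05 from limma) and Hsp90aa1 1.71-fold (adjusted p = 2.44e-04 from limma), whereas Hsph1 was 1.37-fold higher on the keratinocyte-labelled arrays (adjusted p = 0.00310 from limma). Their part in the differences of the 10 factors was not tested.

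**Figure D4:**
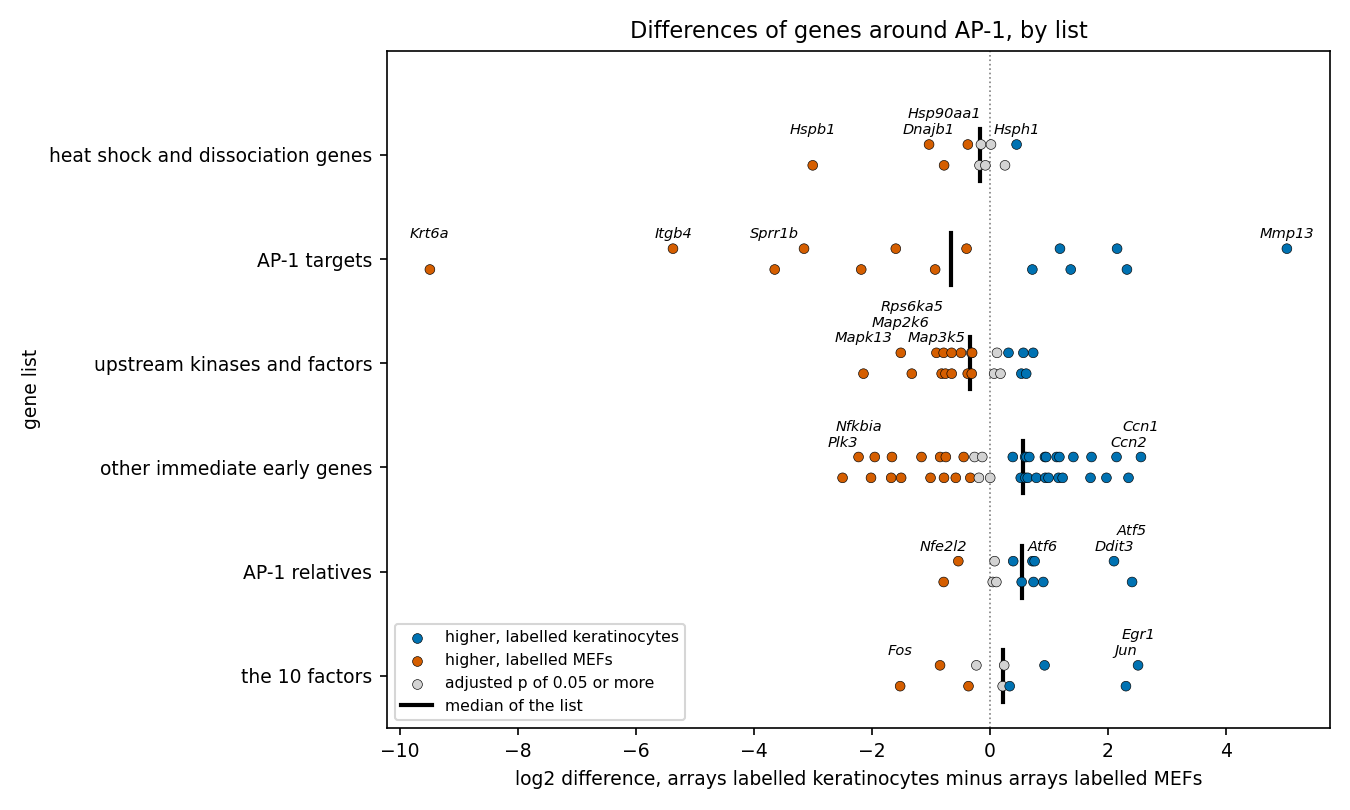
Log2 difference, keratinocyte-labelled arrays minus MEF-labelled arrays (horizontal axis), of each measured gene (point) of the 10 factors and of 5 lists around AP-1 (vertical axis), blue or orange where the gene was called, grey where it was not, with a bar for the median of each list. Each list holds genes called in both directions. Krt6a at -9.49 and Mmp13 at 5.03 are differences against groups not above background.

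The genes whose 6 signals lay nearest to those of Egr1 were Rhoq, Csrp2 and Myo7a, at a root mean square distance of 0.16, 0.17 and 0.20 on the log2 scale. Nearest to Fos were Pmvk, Nrm and Reep6, at 0.19, 0.22 and 0.23. This likeness over 6 arrays in 2 groups depends on probe brightness as well as on the difference between the groups.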

How the data were processed

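RNA was hybridised to 6 arrays. The deposited table holds log2 signals of 15648 probe sets, which the authors normalized by RMA (oligo 1.46.0 in the submitters' processing notes). Their selection is not described in those sources, and RMA can shrink differences of dim genes.

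Groups were taken from the sample titles. Of the probe sets, 11288 had 1 symbol in the platform's table, 645 had several and 3715 had no entry, and symbols were updated by gene identifier (11274 matched) with a RefSeq table of GRCm38.p6. The brightest probe set stood for its gene. The fit was limma 3.58.1 in R 4.3.3 (lmFit and eBayes) over these probe sets, without a block, with Benjamini-Hochberg adjustment and checked on simulated data. Python 3.11.15 and matplotlib 3.10.9 served for sequences and plots. Members, lists and named genes (the 10 factors, the 4 called genes of each list with the largest differences, and genes called against most of their list where at most 3 were) were chosen with earlier results of these data known. Alternatives changed the scaling, the filters, the model and the arrays used, and 1 of them was added after seeing the data, a background from 11 probe sets. The replicates are numbered as biological, and the number of arrays limits the precision.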

Additional observations from a re-analysis of the deposited data

How the results depend on the processing

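Under 20 other ways of processing, and 1 more chosen after seeing the data, no factor changed direction, and counts not given here stayed within 1.5 times the values in the report. Without probe sets dimmer than the median, 2 factors were higher on the keratinocyte-labelled arrays and 0 on MEF-labelled ones. In that setting 1 AP-1 relative was higher on the MEF-labelled arrays, 14 other immediate early genes were higher on keratinocyte-labelled ones, and the AP-1 targets were split 3 and 4. With probe sets not above background on 3 arrays left out, 1 factor and 1 relative were higher on the MEF-labelled arrays, and with the wider background 0 factors, 1 relative and 5 targets. With a minimum log2 difference of 1, the genes higher on the keratinocyte-labelled and MEF-labelled arrays were 2 and 1 of the factors, 2 and 0 of the relatives, 11 and 9 of the other immediate early genes, 0 and 3 of the upstream genes and 0 and 2 of the heat shock genes. With z-scores, 5 heat shock genes were higher on the keratinocyte-labelled arrays. The fall in counts under filters follows from fewer genes tested, and for z-scores the cause was not tested. Leaving out each array in turn gave 3 to 5 factors higher on the keratinocyte-labelled arrays and 3 to 4 on MEF-labelled ones. With array weights, 6 and 3 factors passed. With the replicate number as a block, 4 and 3 passed. Deviations of same-numbered arrays from their group means correlated at -0.19, -0.15 and -0.06, and no array correlated best with its own number. With 3 arrays in each group mean, such weak correlations cannot settle whether the numbers paired the arrays.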
